A study of Mus musculus with 4 samples.

Results

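The genes described here are 9 members of the cerebral cavernous malformation (CCM) and Rap1 pathway, taken by gene name from the deposited tables. They are Heg1, Krit1, Ccm2, Pdcd10, Map3k3, Rap1a, Rap1b, Rasip1 and Arhgap29, and they are 9 of the 14100 genes listed for all 4 libraries. The RNA was that of endothelial cells from the brain, taken at embryonic day 18 (E18) from C57BL/6 mice. There were 2 libraries labelled STING ECKO, numbered 1 and 2, and 2 wild-type (WT) libraries, numbered 3 and 5. STING, which relays the sensing of DNA in the cytosol, is the gene knocked out in endothelium in STING ECKO; the labels give neither the Cre driver nor the deleted exons, nor whether cells of several embryos were pooled. Whether the 2 libraries of a genotype are separate animals is not stated, so a p-value here speaks of the spread between these libraries alone. In WT that spread could be technical. Libraries 1 and 2 of STING ECKO differed in reads of sex-linked genes, with values given below, and so did not repeat a single sample. The design text speaks of triplicates; 2 libraries per genotype were analysed here.

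The CCM proteins form a scaffold at endothelial cell junctions. KRIT1 (CCM1) binds CCM2, and CCM2 binds PDCD10 (CCM3); the receptor HEG1 holds KRIT1 at the membrane through its cytoplasmic tail, and the small GTPase Rap1 binds KRIT1 and promotes its place at junctions. CCM2 also binds the kinase MEKK3, encoded by Map3k3, and the complex restrains MEKK3 signalling to ERK5 and the transcription factors KLF2 and KLF4. Rap1 has a further arm in endothelium, in which its effector RASIP1 works with ARHGAP29, a GTPase-activating protein that switches off RhoA. In people, inherited loss of KRIT1, CCM2 or PDCD10 causes clusters of dilated, leaky capillaries in the brain.

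The DNA just before the start sites of the genes for the CCM scaffold is shown because Krit1, Ccm2 and Pdcd10 were the members whose genotypes did not overlap. The sequences are from RefSeq on GRCm38.p6, on the strand of the gene and without transcribed bases. Capitals mark 2 of the motifs searched on both strands, the letters CCGGAAG, a strict form of the ETS core, and the GC box GGGCGG. No marked match overlapped another. Only exact letters were marked, so looser forms of the ETS core, such as ggaag in the Pdcd10 window, were not counted. The windows are chr5:3802931-3803155 on the plus strand for Krit1, chr11:6546637-6546886 on the plus strand for Ccm2 and chr3:75556857-75557102 on the minus strand for Pdcd10.
Krit1: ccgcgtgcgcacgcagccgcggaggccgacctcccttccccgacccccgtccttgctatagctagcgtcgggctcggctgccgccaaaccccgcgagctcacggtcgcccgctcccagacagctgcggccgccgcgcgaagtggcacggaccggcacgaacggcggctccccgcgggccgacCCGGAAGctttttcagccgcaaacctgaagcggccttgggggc
Ccm2: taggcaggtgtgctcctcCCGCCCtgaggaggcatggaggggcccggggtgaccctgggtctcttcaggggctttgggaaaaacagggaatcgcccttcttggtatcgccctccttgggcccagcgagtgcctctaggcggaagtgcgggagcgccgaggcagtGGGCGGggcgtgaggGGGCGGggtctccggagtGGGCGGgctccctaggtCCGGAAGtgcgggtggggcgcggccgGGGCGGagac
Pdcd10: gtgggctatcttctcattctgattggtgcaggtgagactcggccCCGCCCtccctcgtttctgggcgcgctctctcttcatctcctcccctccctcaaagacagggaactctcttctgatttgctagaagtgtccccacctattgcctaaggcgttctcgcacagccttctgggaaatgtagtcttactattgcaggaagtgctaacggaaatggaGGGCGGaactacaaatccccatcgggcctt
The Ccm2 window held 5 GC boxes and 1 exact CCGGAAG. The Pdcd10 window held 2 GC boxes and 0 exact CCGGAAG, and the Krit1 window 0 GC boxes and 1 exact CCGGAAG. Over all 32851 RefSeq windows of 250 bases, 32.7% held a GC box and 6.91% an exact CCGGAAG. The letters TGACGTCA and CACGTG, searched in the same way, were in none of these 3 windows. They were in 1.55% and 6.02% of all windows. Among members whose genotypes overlapped, the Rap1b window held 4 GC boxes, that of Heg1 1, and those of Map3k3 and Arhgap29 0. None of these held an exact CCGGAAG, and the windows differed in length. Rasip1 and a second start of Ccm2 left no untranscribed bases. Any link between these letters and the genotype differences was not tested.

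The libraries held 18610298 and 22169261 reads for STING ECKO 1 and 2 and 21472677 and 20591981 for WT 3 and 5. Tmem173 (Sting1), the targeted gene, measured 3.65 and 8.32 CPM (reads scaled to a common library total) in the libraries labelled STING ECKO, against 4.48 and 6.27 CPM in WT (log2 fold change 0.16, SE 1.26, adjusted p = 1.00 by edgeR's quasi-likelihood test). It was highest in a library labelled STING ECKO, so it did not separate the labels, although reads outside a deleted part would still be counted; every direction below rests on the labels. The 2 STING ECKO libraries differed in sex-linked genes: Xist had 0 and 876 reads in STING ECKO, against 2347 and 3374 in WT. Reads of Ddx3y, on the Y chromosome, numbered 3623 in STING ECKO 1, against 0 in WT 3, and the gene was not listed for the other pair. By these reads sex was not balanced between the genotypes, and its part in the differences below was not tested. STING ECKO 2 had 13.2% of the 14100 genes at 0 reads, against 2.39% to 5.25% in the other libraries. As for the cell type label, all 12 endothelial markers were read in every library, with summed levels of 20644 and 22370 CPM in STING ECKO, against 20706 and 19835 CPM in WT. The largest part was Cldn5, at 10487 and 12536 CPM in STING ECKO, against 10853 and 10529 CPM in WT. These markers went both ways: Kdr, Flt1 and Esam were higher in both STING ECKO libraries, Pecam1 and Robo4 were lower, and the others overlapped.

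All 9 members were read in every library, with 271 to 7677 reads, and all 9 passed the filter on low counts. The genotype test called 0 of the 9. It called 0 of 13365 genes in all (edgeR's quasi-likelihood test with Benjamini-Hochberg adjustment, smallest adjusted p = 0.977; 0% called), while 642 genes (4.80%) and 0 members had an unadjusted p under 0.05. DESeq2 called 87 of 12587 genes (0.691%), the edgeR likelihood ratio test 33 of 13365 (0.247%) and limma-voom 0; none of the 3 called a member. The genotypes did not overlap in 3 of the 9 members (33.3%), close to the 34.4% of all genes tested. The log2 fold change was above 0 in 5 members and below 0 in 4, against 48.2% above 0 among all genes, with a median of 0.09 over the members and -0.03 over all genes.

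**Figure D1:**
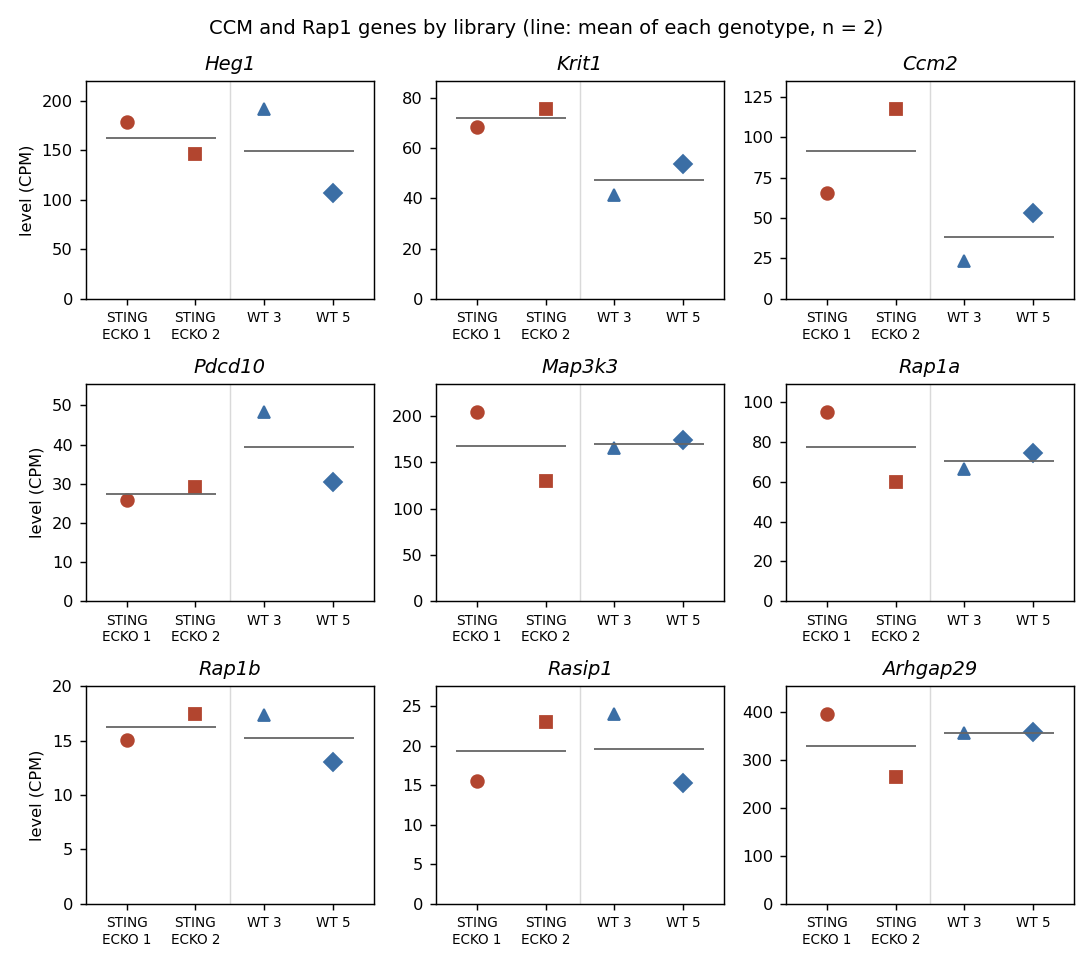
Level of each member in CPM (vertical axis, from 0) in the libraries labelled STING ECKO 1 and 2 and in WT 3 and 5, with a line at the mean of each genotype (n = 2). Krit1 and Ccm2 lie higher in both STING ECKO libraries than in either WT library and Pdcd10 lies lower, while the genotypes overlap in the other 6 panels.

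The scaffold genes come first. Krit1 (ENSMUSG00000000600, chromosome 5, 3803184 to 3845564, plus strand, GRCm38), the adaptor that Rap1 and HEG1 both bind, was at 68.4 and 75.5 CPM in libraries 1 and 2 labelled STING ECKO, against 41.2 and 53.6 CPM in WT 3 and 5. Both STING ECKO libraries lay above both WT libraries, and the exact binomial counting intervals (95%) did not meet: the lower one of STING ECKO began at 64.6 CPM and the higher one of WT ended at 56.8 CPM. Means were 71.9 ± 5.05 CPM in STING ECKO and 47.4 ± 8.73 CPM in WT (SD, n = 2 each). The log2 fold change was 0.60 (SE 0.38). The unadjusted p was 0.175 and the adjusted p 1.00 by edgeR's quasi-likelihood test. Left-out libraries moved this value between 0.43 and 0.81.

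Ccm2 (ENSMUSG00000000378, chromosome 11, 6546887 to 6596744, plus strand), the adaptor between KRIT1, PDCD10 and MEKK3, differed most between the genotypes among the 9. It measured 65.6 and 117 CPM in STING ECKO 1 and 2, against 23.3 and 53.4 CPM in WT 3 and 5. No value of 1 genotype reached into the other, yet the 2 libraries of each genotype stood apart from each other, by 1.79-fold in STING ECKO and 2.29-fold in WT. Means were 91.4 ± 36.6 CPM in STING ECKO and 38.4 ± 21.2 CPM in WT (SD, n = 2 each). The log2 fold change was 1.25 (SE 0.57). Its unadjusted p of 0.0786 was the smallest of the members, with an adjusted p of 1.00 by edgeR's quasi-likelihood test. Leaving out STING ECKO 2 or WT 3 gave 0.78 in each case, leaving out STING ECKO 1 gave 1.61, and leaving out WT 5 gave 1.98.

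Pdcd10 (ENSMUSG00000027835, chromosome 3, 75516490 to 75556856, minus strand), which joins the scaffold to the STRIPAK phosphatase complex and to kinases of the GCKIII family, had lower values in STING ECKO. It measured 25.9 and 29.1 CPM in STING ECKO 1 and 2, against 48.4 and 30.4 CPM in WT 3 and 5. WT 3 stood alone: the counting intervals of STING ECKO 2 (26.9 to 31.4 CPM) and WT 5 (28.1 to 32.9 CPM) overlapped. Means were 27.5 ± 2.26 CPM in STING ECKO and 39.4 ± 12.7 CPM in WT (SD, n = 2 each). The log2 fold change was -0.52 (SE 0.54, adjusted p = 1.00 by edgeR's quasi-likelihood test). It came to -0.14 when WT 3 was left out, to -0.81 when WT 5 was, and to -0.60 and -0.44 when either library of STING ECKO was. Of the 50-base windows of its transcripts, 13.4% also occur in Gm14253, a processed pseudogene with 18 and 17 reads in STING ECKO, against 7 and 15 in WT, so reads there may be split.

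Ratios of reads inside a library do not depend on library scaling. Ccm2 over Pdcd10 was 2.53 and 4.03 in the libraries labelled STING ECKO 1 and 2, against 0.483 and 1.75 in WT 3 and 5. Krit1 over Pdcd10 was 2.64 and 2.60 in STING ECKO, against 0.853 and 1.76 in WT. Both ratios were higher in each STING ECKO library than in each WT library, as the choice of genes with opposite directions makes them be. Ccm2 over Krit1, in contrast, was 0.959 and 1.55 in STING ECKO, against 0.566 and 0.996 in WT, so that STING ECKO 1 lay below WT 5.

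**Figure D2:**
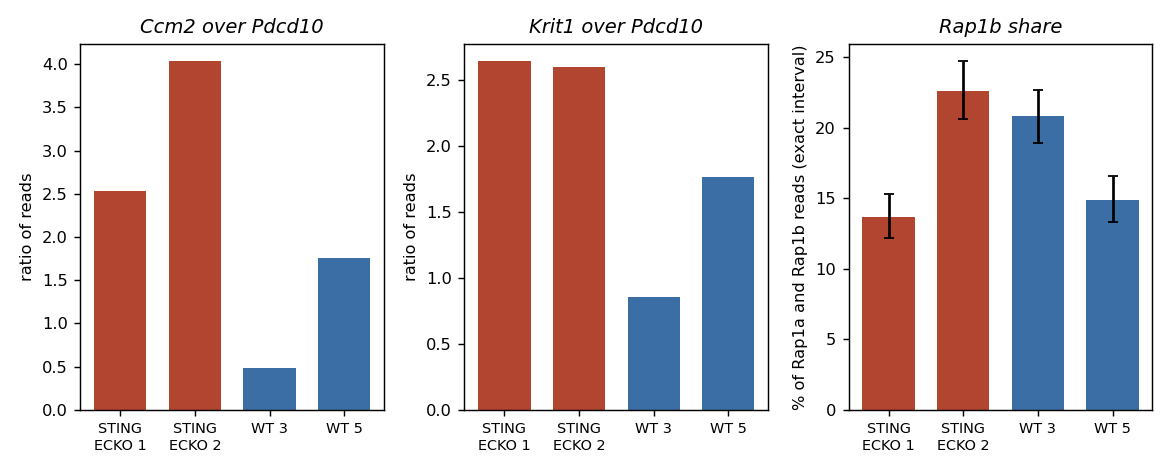
Ratio of Ccm2 to Pdcd10 reads, ratio of Krit1 to Pdcd10 reads, and share of Rap1b among Rap1a and Rap1b reads in percent (bars, from 0) in STING ECKO 1 and 2 and WT 3 and 5, with exact 95% counting intervals on the share. Both ratios are lowest in WT 3 (0.483 and 0.853), and the Rap1b share is low in STING ECKO 1 and WT 5 and high in STING ECKO 2 and WT 3.

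RNA of other cell types was present, and the sums of 4 of the 6 lists of such markers separated the labels. In the libraries labelled STING ECKO the 8 measured pericyte and smooth muscle markers summed to 9108 and 9359 CPM, against 7355 and 6777 CPM in WT. The 8 neuron markers summed to 63.8 and 42.2 CPM in STING ECKO, against 136 and 87.6 CPM in WT, and the 7 measured astrocyte and radial glia markers to 53.6 and 10.2 CPM in STING ECKO, against 107 and 85.7 CPM in WT. The pericyte and smooth muscle sum was mostly Rgs5, at 6849 and 7225 CPM in STING ECKO, against 5591 and 4876 CPM in WT, and Kcnj8, at 1480 and 1549 CPM in STING ECKO, against 1088 and 1262 CPM in WT. Its members went both ways: Rgs5, Kcnj8 and Anpep were higher in both STING ECKO libraries, Cspg4 and Acta2 were lower, and Pdgfrb, Abcc9 and Des overlapped. Acta2, the neuron marker Syn1 and the glial marker Acsbg1 had 0 reads in both STING ECKO libraries. Among the neuron markers Tubb3, Syn1, Gap43 and Dcx were lower in both STING ECKO libraries, while Snap25, Stmn2, Map2 and Rbfox3 overlapped. Among the measured astrocyte and radial glia markers Aldh1l1 and Fabp7 overlapped and the others were lower. The 9 microglia and macrophage markers summed to 496 and 348 CPM in STING ECKO, against 539 and 1321 CPM in WT, lower in both STING ECKO libraries and highest in WT 5. Of these markers, Cx3cr1, C1qb and Pf4 were lower in both STING ECKO libraries and the others overlapped. The 5 markers of oligodendrocyte precursors summed to 13.9 and 6.36 CPM in STING ECKO, against 16.1 and 7.38 CPM in WT. The part of these cells in the values of Krit1, Ccm2 and Pdcd10 was not tested. In bulk RNA, fewer cells of a type and less RNA per cell cannot be told apart.

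The receptor and the kinase did not separate the genotypes. Heg1 (ENSMUSG00000075254, chromosome 16, 33684466 to 33771576, plus strand), the junctional receptor of the scaffold, measured 179 and 146 CPM in STING ECKO 1 and 2, against 191 and 107 CPM in WT 3 and 5. WT 3 was the highest and WT 5 the lowest of the 4 libraries, and both STING ECKO libraries lay between them. The log2 fold change was 0.12 (SE 0.36, adjusted p = 1.00 by edgeR's quasi-likelihood test) and turned to -0.23 without WT 5 and -0.03 without STING ECKO 1.

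Map3k3 (ENSMUSG00000020700, chromosome 11, 106084613 to 106155446, plus strand), which encodes the kinase MEKK3, measured 204 and 130 CPM in STING ECKO 1 and 2, against 166 and 174 CPM in WT 3 and 5. Here the libraries labelled STING ECKO lay on either side of WT, 1.58-fold apart, while the WT libraries were 1.05-fold apart. The means were 167 ± 52.7 CPM in STING ECKO and 170 ± 5.91 CPM in WT (SD, n = 2 each), with a log2 fold change of -0.03 (SE 0.30, adjusted p = 1.00 by edgeR's quasi-likelihood test). Leaving out STING ECKO 2 gave 0.27 and leaving out STING ECKO 1 gave -0.39.

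**Figure D3:**
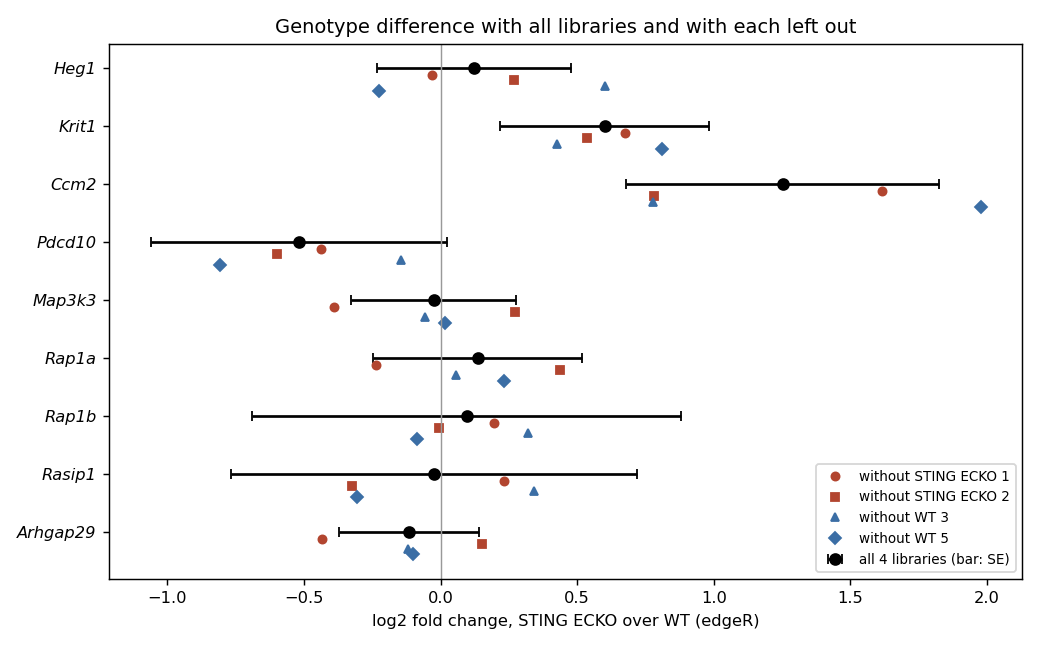
Log2 fold change of each member, STING ECKO over WT (horizontal axis), by edgeR with all 4 libraries (black, bar: SE) and with each library left out (coloured). The sign of Krit1, Ccm2 and Pdcd10 stays the same in all 5 fits, and that of each other member turns in at least 1 of them. The genotypes of Krit1, Ccm2 and Pdcd10 do not overlap, so at a given scaling their sign is bound to stay.

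Rap1a and Rap1b encode the closely related GTPases that switch this pathway on when bound to GTP. Rap1a (ENSMUSG00000068798, chromosome 3, 105727267 to 105801336, minus strand) measured 95.0 and 59.7 CPM in STING ECKO 1 and 2, against 66.3 and 74.6 CPM in WT 3 and 5, a log2 fold change of 0.14 (SE 0.38). Rap1b (ENSMUSG00000052681, chromosome 10, 117813871 to 117846035, minus strand) measured 15.1 and 17.4 CPM in STING ECKO, against 17.4 and 13.1 CPM in WT, a log2 fold change of 0.09 (SE 0.79). The genotypes overlapped for both genes, each with an adjusted p of 1.00 by edgeR's quasi-likelihood test. The sign of Rap1a turned without STING ECKO 1 (-0.24), and that of Rap1b without STING ECKO 2 (-0.0059) and without WT 5 (-0.088).

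Rap1b made up a minority of Rap1 reads in every library. Its share of Rap1a and Rap1b reads was 13.7% (exact 95% interval 12.2% to 15.3%) in STING ECKO 1 and 22.6% (20.6% to 24.7%) in STING ECKO 2, and 20.8% (18.9% to 22.7%) in WT 3 and 14.9% (13.3% to 16.6%) in WT 5. The 2 libraries of each genotype thus differed by more than counting error, while STING ECKO 1 and WT 5 overlapped, as did STING ECKO 2 and WT 3. The summed level of the 5 erythroid markers moved the same way: 1208 and 2827 CPM in STING ECKO 1 and 2, against 2493 and 1294 CPM in WT 3 and 5; its part in the share was not tested. Of the 50-base windows of Rap1a transcripts, 8.27% also occur in other genes, mostly in the pseudogene Gm9392 (134 and 93 reads in STING ECKO, 135 and 166 in WT), and 0 of the 2881 windows of Rap1b do.

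The effector pair was unequal in level. Arhgap29 (ENSMUSG00000039831, chromosome 3, 121952541 to 122016753, plus strand), the RhoA-inactivating partner of RASIP1, measured 395 and 264 CPM in STING ECKO 1 and 2, against 355 and 359 CPM in WT 3 and 5. As with Map3k3 and Rap1a, the libraries labelled STING ECKO lay on either side of WT, and the WT libraries differed by 1.01-fold. Its log2 fold change of -0.12 (SE 0.26, adjusted p = 1.00 by edgeR's quasi-likelihood test) turned to 0.15 without STING ECKO 2 and was -0.43 without STING ECKO 1.

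Rasip1 (ENSMUSG00000044562, chromosome 7, 45627488 to 45639093, plus strand), the Rap1 effector itself, measured 15.6 and 23.0 CPM in STING ECKO 1 and 2, against 24.0 and 15.2 CPM in WT 3 and 5. It was high in STING ECKO 2 and WT 3 and low in STING ECKO 1 and WT 5, the order also seen in Rap1b. The log2 fold change was -0.02 (SE 0.74, adjusted p = 1.00 by edgeR's quasi-likelihood test), 0.23 without STING ECKO 1 and 0.34 without WT 3. Its exons share 654 bases with Izumo1 on the same strand and 498 with A030001D20Rik on the other. Izumo1 had 102 reads in STING ECKO 1, against 0 in WT 3, and was not listed for the other pair. A030001D20Rik had 161 and 210 reads in STING ECKO, against 490 and 154 in WT, so the count of Rasip1 is uncertain. Arhgap29 over Rasip1 was 25.3 and 11.5 in reads in STING ECKO, against 14.8 and 23.5 in WT.

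To compare levels between genes, CPM were divided by the length of the principal transcript in kilobases. The order rests on that choice of length, because reads were counted per gene. For Krit1 the principal transcript has 2930 bases and all exons together 21853, and for Heg1 6714 and 12728. In CPM not divided by length, Krit1 lay above Rasip1 and Rap1b in every library. Levels over exon length were not computed, so its place per length is known only on the scale of the principal transcript. On that scale Arhgap29 and Map3k3 had the highest means over the 4 libraries, 59.3 ± 9.65 and 48.8 ± 8.89 CPM per kb (SD, n = 4). Ccm2 at 34.9 ± 21.1, Rap1a at 30.7 ± 6.37, Heg1 at 23.2 ± 5.60, Krit1 at 20.4 ± 5.22 and Pdcd10 at 17.4 ± 5.25 CPM per kb followed, each overlapping its neighbour in the order. Rasip1 at 6.08 ± 1.46 and Rap1b at 5.78 ± 0.766 CPM per kb came last, did not differ from each other beyond their spread, and lay below every value of the other 7. The place of Ccm2 varied: it ranked 4 and 1 of the 9 in STING ECKO 1 and 2, against 7 and 4 in WT 3 and 5.

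**Figure D4:**
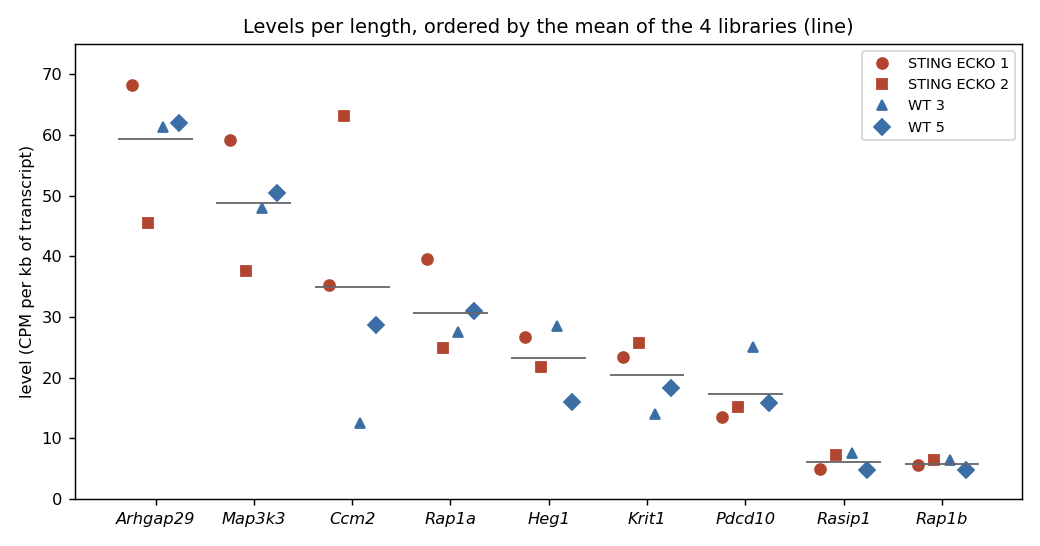
Level of each member per kilobase of transcript (CPM per kb, from 0) in the 4 libraries, ordered by the mean (line). Arhgap29 and Map3k3 have the highest means, Rasip1 and Rap1b stay at or below 7.49 CPM per kb, and Ccm2 spans 12.6 to 63.1 CPM per kb.

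The values can also be set out by the tables in which they were deposited, STING ECKO 1 with WT 3 and STING ECKO 2 with WT 5. Krit1, Ccm2 and Pdcd10 had the same sign in both pairs and the other 6 members opposite signs, so 3 of 9 (33.3%) kept their sign, against 50.1% of all genes tested. For these 3 members the genotypes did not overlap, so the same sign in both pairs had to follow and is no second observation. Log2 differences of CPM were 0.73 and 0.49 for Krit1, 1.49 and 1.13 for Ccm2 and -0.90 and -0.07 for Pdcd10. Map3k3 (0.30 and -0.43), Rap1a (0.52 and -0.32) and Arhgap29 (0.15 and -0.44) were above 0 in the first pair and below 0 in the second, and Heg1 (-0.10 and 0.44), Rasip1 (-0.62 and 0.59) and Rap1b (-0.20 and 0.41) were the other way round. In the authors' deposited tables only Ccm2 of the 9 was marked in each pair, with a log2 fold change of 1.46 and 1.11; the authors' deposited tables marked 40.9% of all genes in the first pair (21.5% marked and higher) and 52.1% in the second (17.0% marked and higher), and each mark compares 1 library with 1 library.

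The spread inside a genotype is given as a description. The median absolute log2 difference between the libraries of 1 genotype was 0.56 for STING ECKO and 0.41 for WT over the 9 members. Over the 8519 genes with a mean of 10 to 500 CPM it was 0.64 for STING ECKO and 0.45 for WT. The WT libraries were farther apart than the STING ECKO libraries for Krit1, Ccm2, Pdcd10, Heg1, Rasip1 and Rap1b. They were closer together for Map3k3, Rap1a and Arhgap29. The share of all genes with the wider spread in WT was not computed, so no reading is given to this split.

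Likeness of pattern was measured as the root mean square difference in log2 CPM, centred on the mean of the 4 libraries, among 8799 other genes with a mean of at least 10 CPM. Nearest to Krit1 were Nkap (0.02), Tfpt (0.04) and Nup205 (0.04), and 44 genes lay within 0.1. Nearest to Ccm2 were Eif2d (0.06), Alg9 (0.06) and AC154636.3 (0.06), with 6 genes within 0.1. Ccm2 and Krit1 themselves differed by 0.51, with 4185 genes nearer to Krit1 than Ccm2 was. With 4 libraries such likeness is a description alone.

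Around the 9 members, 84 related genes made up 6 lists, and 81 of them were tested. None of the 81 passed the test over all genes (edgeR's quasi-likelihood test with Benjamini-Hochberg adjustment). By the same test 5 of the 81 had an unadjusted p under 0.05, against 4.80% of all genes. A log2 fold change above 0 was found in 41 (50.6%), against 48.2% of all genes. The genotypes did not overlap in 32 of the 81 (39.5%), 19 higher and 13 lower in the libraries labelled STING ECKO, against 34.4% of all genes, 15.4% higher and 19.0% lower. Apart from Klf2 and Klf4, list genes with levels given below had the smallest unadjusted p of their list at a mean of at least 5 CPM. That choice favours genes that separate the genotypes.

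Among partners of Pdcd10, the GCKIII kinases and STRIPAK subunits, 0 of 13 tested genes passed, 6 lay above 0 and 7 below, and the median log2 fold change was -0.03. Cttnbp2nl, which is linked to STRIPAK, measured 128 and 127 CPM in STING ECKO 1 and 2, against 198 and 193 CPM in WT 3 and 5. Its log2 fold change was -0.62 (SE 0.23, unadjusted p = 0.0389, adjusted p = 1.00 by edgeR's quasi-likelihood test). Slmap, another subunit, measured 66.1 and 85.0 CPM in STING ECKO, against 47.0 and 24.6 CPM in WT. Both separated the genotypes, in opposite directions, which the choice by smallest p favours. Over the 13 tested genes, 1 was higher and 3 were lower in STING ECKO without overlap.

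Of 9 partners of Krit1 and Ccm2, 0 passed, 5 lay above 0, and the median was 0.20. Rac1, a GTPase of the actin cytoskeleton that CCM2 can scaffold with MEKK3, was at 351 and 259 CPM in libraries 1 and 2 labelled STING ECKO, against 125 and 165 CPM in WT 3 and 5. Both STING ECKO values were above both WT values, with a log2 fold change of 1.07 (SE 0.28, unadjusted p = 0.0112, adjusted p = 0.977 by edgeR's quasi-likelihood test). Ctnnb1, beta-catenin, measured 685 and 552 CPM in STING ECKO, against 509 and 509 CPM in WT.

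The list for the MEKK3-ERK5 cascade and its reported targets held 17 genes. It also took in the p38 genes Map2k6 and Mapk14 and the receptor genes Tlr4 and Cd14. Of the 17, 0 passed, 6 lay above 0 and 11 below, and the median was -0.18. Mapk14, the p38 kinase, measured 176 and 142 CPM in STING ECKO 1 and 2, against 82.8 and 74.2 CPM in WT 3 and 5, a log2 fold change of 1.02 (SE 0.28, unadjusted p = 0.0134, adjusted p = 0.977 by edgeR's quasi-likelihood test). Adamts4, a versican-cleaving protease, had 11 and 0 reads in STING ECKO, against 365 and 215 in WT, and STING ECKO 2 is the library with the most genes at 0. The log2 fold change of Adamts4 was -5.49 (SE 2.26, unadjusted p = 0.0579 by edgeR's quasi-likelihood test). Klf2 and Klf4, the transcription factors downstream of ERK5, were picked out after their values were seen. Klf2 measured 126 and 137 CPM in STING ECKO, against 102 and 84.1 CPM in WT, without overlap, while Klf4 measured 84.0 and 119 CPM in STING ECKO, against 162 and 113 CPM in WT, with overlap. The log2 fold changes were 0.50 (SE 0.27) for Klf2 and -0.43 (SE 0.34) for Klf4, and neither gene passed the test.

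Rap1 exchange factors and GTPase-activating proteins had 0 of 15 tested genes past the test, 7 above 0, and a median of -0.08. Rapgef3, the cAMP-activated Rap1 exchange factor EPAC1, measured 103 and 76.6 CPM in STING ECKO 1 and 2, against 65.0 and 64.3 CPM in WT 3 and 5. Sipa1l1, which inactivates Rap GTPases, measured 47.0 and 34.3 CPM in STING ECKO, against 31.3 and 18.4 CPM in WT. Neither passed: the log2 fold changes were 0.48 (SE 0.34) and 0.71 (SE 0.58).

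Other Rap1 effectors and Rap2 GTPases had 0 of 12 past the test, 8 above 0, and a median of 0.37. Afdn, the junctional Rap1 effector afadin, measured 270 and 254 CPM in STING ECKO 1 and 2, against 192 and 151 CPM in WT 3 and 5, a log2 fold change of 0.62 (SE 0.23, unadjusted p = 0.0452, adjusted p = 1.00 by edgeR's quasi-likelihood test). Arap3, whose activity Rap1 stimulates, measured 204 and 329 CPM in STING ECKO, against 189 and 188 CPM in WT. The lowest STING ECKO value of both genes exceeded the highest WT value, which the choice by smallest p favours. Over the 12 genes, 2 were higher and 3 were lower in STING ECKO without overlap.

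Of 15 RhoA-ROCK and Cdc42 genes, among them Rhoa, whose product ARHGAP29 switches off, 0 passed, 9 lay above 0, and the median was 0.12. Rhob, a small GTPase found on endosomes, was at 203 and 281 CPM in libraries 1 and 2 labelled STING ECKO, against 109 and 75.6 CPM in WT 3 and 5. Its log2 fold change was 1.39 (SE 0.32, unadjusted p = 0.0066, adjusted p = 0.977 by edgeR's quasi-likelihood test), and DESeq2 called it with an adjusted p of 0.0254; over all alternatives its adjusted p ranged from 0.0254 to 1.00. Myl9, a myosin light chain that smooth muscle also expresses, measured 381 and 383 CPM in STING ECKO, against 293 and 227 CPM in WT; the pericyte markers Rgs5 and Kcnj8 were also higher, while the smooth muscle marker Acta2 was at 0 and 0 CPM in STING ECKO, against 1.43 and 2.65 CPM in WT, and Cspg4 at 83.8 and 152 CPM in STING ECKO, against 155 and 181 CPM in WT. The part of these cells in the value of Myl9 was not tested.

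**Figure D5:**
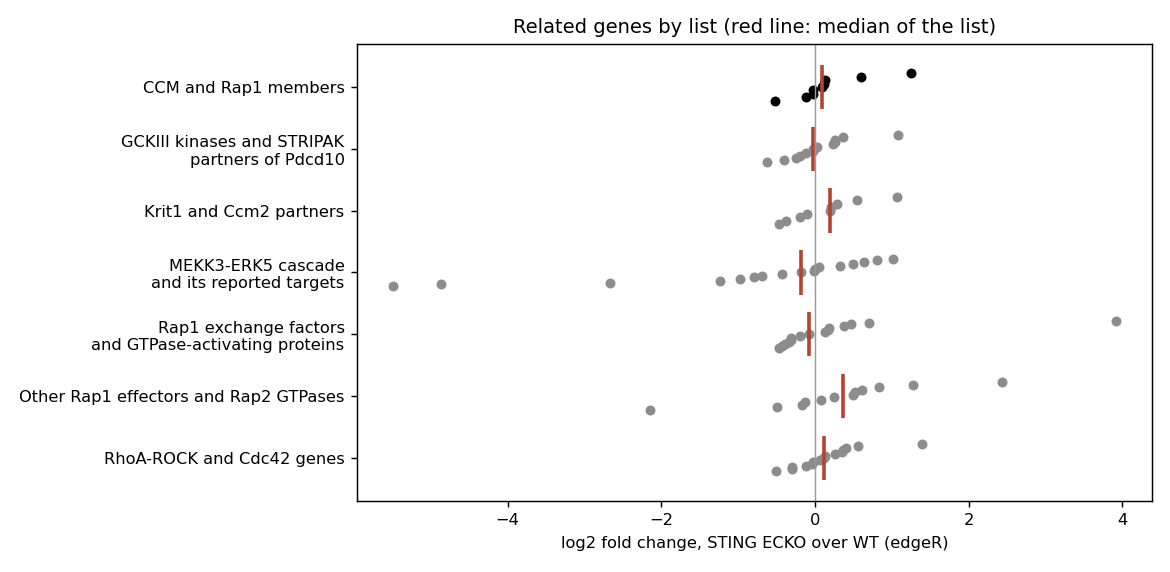
Log2 fold change, STING ECKO over WT by edgeR (horizontal axis), of the 9 members (black) and of the tested genes of 6 related lists (grey), with the median of each in red. Medians lie between -0.18 and 0.37 and that of the members is 0.09; Adamts4 has the lowest value.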

How the data were processed

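RNA of 4 libraries was counted per gene by the authors. Per the submitters' processing notes the tools were HTSeq 0.6.0, TopHat2 2.0.12 and Bowtie2 2.2.3, with the build mm9; no source used here gives the annotation release or strand setting. Per the file headers, the deposited counts are raw reads of each gene. The authors' log2 fold change column compares 1 library with 1 library, per the file headers, and so does their yes or no mark, deposited as other text. Positions in the tables matched GRCm38 (GENCODE M21) exactly for 16013 of 17858 genes (89.7%) and are printed as such. The tables were merged by gene identifier; 3805 genes listed in 1 table entered an alternative, with missing values set to 0, and 20 symbols altered by a spreadsheet were restored.

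The test was edgeR 4.0.16 (R 4.3.3) with filterByExpr (minimum count 10), TMM factors and the quasi-likelihood test, Benjamini-Hochberg adjusted over 13365 genes at 0.05; an SE is the log2 fold change over the root of F. CPM use TMM-scaled sizes, log2 CPM a prior count of 2. Alternatives were DESeq2 1.42.0, limma-voom 3.58.1, the likelihood ratio test, changed scaling or filtering, the deposited table as a block, and each library left out. The members, lists and tests were chosen with earlier results of these data known. Named in the lists were genes past the threshold or, as none passed, the 2 with the smallest unadjusted p at a mean of at least 5 CPM; Klf2 and Klf4 were added. RefSeq promoter entries were found for 8 of 9 members. Counting intervals and depth cover counting error only.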

Additional observations from a re-analysis of the deposited data

How the results depend on the processing

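Of 14 alternatives, none put a member past the adjusted threshold, and Krit1, Ccm2 and Pdcd10 kept their sign in every one. The count of genes past it was 87 by DESeq2 and 33 by the edgeR likelihood ratio test, against 0 by the quasi-likelihood test, and it was 0 in each of the other 12. The median log2 fold change of the members, 0.09 with all libraries, ranged from -0.088 to 0.32 with 1 library left out, and 4 to 6 members lay above 0. With 1 library left out the sign of 6 members and of Tmem173 turned, over ranges of -0.23 to 0.60 for Heg1, -0.39 to 0.27 for Map3k3, -0.33 to 0.34 for Rasip1, -0.24 to 0.44 for Rap1a, -0.088 to 0.32 for Rap1b, -0.43 to 0.15 for Arhgap29 and -0.55 to 0.63 for Tmem173. Rasip1 was also 0.00071 by limma-voom. The cause was not tested. The mean Rap1b share was 16.5% to 19.4% with 1 library left out and 16.3% per transcript length. Leaving out a library leaves its genotype with 1 sample, assumed to vary like the other genotype. The genotypes of Krit1, Ccm2 and Pdcd10 did not overlap, so in these fits their sign was bound to stay at a given scaling. The genotypes share no replicate number, so pairs could be formed only from the deposited tables. With the table as a block, 0 genes were called and the log2 fold change was 0.61 for Krit1, 1.31 for Ccm2 and -0.48 for Pdcd10.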
